A study of Mus musculus with 12 samples.

Results

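A set of 10 genes that act in translational control in germ cells was followed in the testes of aging mice: the Y-box proteins Ybx2 and Ybx3, the poly(A)-binding protein Pabpc1, the poly(A) polymerase Papolb, the cap-complex genes Eif4g3 and Eif4e1b, the RNA-binding proteins Dazl, Boll and Cpeb1, and the double-stranded RNA-binding protein Tarbp2. The genes were chosen by name, and all assembled transcripts with these symbols that matched, lay within, shared a splice junction with or overlapped a RefSeq transcript (class codes =, c, j and o) were summed. This gave 56 of the 71967 transcripts in the table, 25 identical to RefSeq, 30 sharing a junction and 1 overlapping, and 10 of the 24516 genes.

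Testis RNA came from male wild-type C57BL/6 mice, an inbred strain, at 3, 6, 12 and 18 months of age (3M, 6M, 12M and 18M), with 3 mice per age and 1 library per mouse. No treatment or transgene is named for any group, and age is the only difference named between them. The paper leaves it unclear whether the mice of an age were littermates, so litter and age cannot be told apart. Ribosomal RNA was depleted, the kit kept no strand, and the deposited counts summed to between 50924104 and 71803379 reads per library. Whole testis holds germ and somatic cells together, so fewer cells of a type and less RNA per cell cannot be told apart. Markers of all germ cell stages were present, from spermatogonia, with a summed level of 104 to 120.4 CPM (read counts scaled to the library total, with TMM factors between libraries), to elongating spermatids, at 15064 to 22148 CPM.

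Transcription stops as the chromatin of spermatids condenses, so many mRNAs of late sperm proteins are made early, stored as silent particles, and translated days later. Y-box proteins package such mRNAs, poly(A) tail enzymes and poly(A)-binding proteins set how readily they are read, and the cap complex recruits the ribosome. Proteins of the DAZ family and CPEB1 bind elements in the mRNA and switch individual transcripts on or off earlier, in spermatogonia and meiosis.

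The deposited tables carry 2 alternative coding exons of these genes, shown because they set which protein isoform an mRNA encodes. Capitals mark the exon, and lower case the 15 bases of the mRNA on either side, from GENCODE vM21 (mm10). Exon 6 of 10 of Ybx3 (chr6:131375974-131376180, minus strand) is 207 nt long, or 69 codons, and lies in the coding sequence. Exon 8 of 11 of Dazl (chr17:50284996-50285046, minus strand) is 51 nt long, or 17 codons, and is also coding.
Ybx3 exon 6: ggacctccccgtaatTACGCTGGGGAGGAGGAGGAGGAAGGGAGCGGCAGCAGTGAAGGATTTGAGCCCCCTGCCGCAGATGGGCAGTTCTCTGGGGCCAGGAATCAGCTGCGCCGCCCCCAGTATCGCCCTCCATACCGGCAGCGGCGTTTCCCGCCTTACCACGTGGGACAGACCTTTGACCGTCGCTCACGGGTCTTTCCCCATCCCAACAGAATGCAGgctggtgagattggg
Dazl exon 8: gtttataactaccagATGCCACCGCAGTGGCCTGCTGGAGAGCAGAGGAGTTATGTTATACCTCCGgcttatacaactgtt

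The expression levels of the genes spanned a wide range. FPKM is scaled by the length of each assembled transcript, so a comparison of genes rests on these lengths. Ybx2 had the highest mean at 1079 ± 83 FPKM (SD, n = 12), rank 19 of the 22685 genes above 0. Pabpc1 (893 ± 29.6) and Ybx3 (835 ± 50.5) followed at ranks 24 and 29. Papolb (172 ± 37.8), Tarbp2 (74.4 ± 3.19), Eif4g3 (64.3 ± 7.65), Dazl (36.2 ± 1.63) and Boll (27.5 ± 1.20) lay between. Cpeb1 was low at 2.94 ± 0.17 FPKM, and Eif4e1b was close to the limit of detection at 0.2 ± 0.07 FPKM. In the order of the 10 means, the ranges of neighbours over the 12 libraries overlapped only for Pabpc1 with Ybx3 and for Tarbp2 with Eif4g3. Pabpc1 was above Ybx3 in 10 and Tarbp2 above Eif4g3 in 11 of 12 libraries. Long assembled exons with thin coverage enter the FPKM of Boll, whose last exons had 24.6% to 37.4% of the coverage of its internal exons. The 2691-nt exon of Eif4g3 had 3.23% to 4.31% of that of its shared exons. For Papolb, a mean of 23.9% of its exon reads was assigned to transcripts of the gene Radil. The places of Boll, Eif4g3 and Papolb in this order are therefore not settled.

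**Figure D1:**
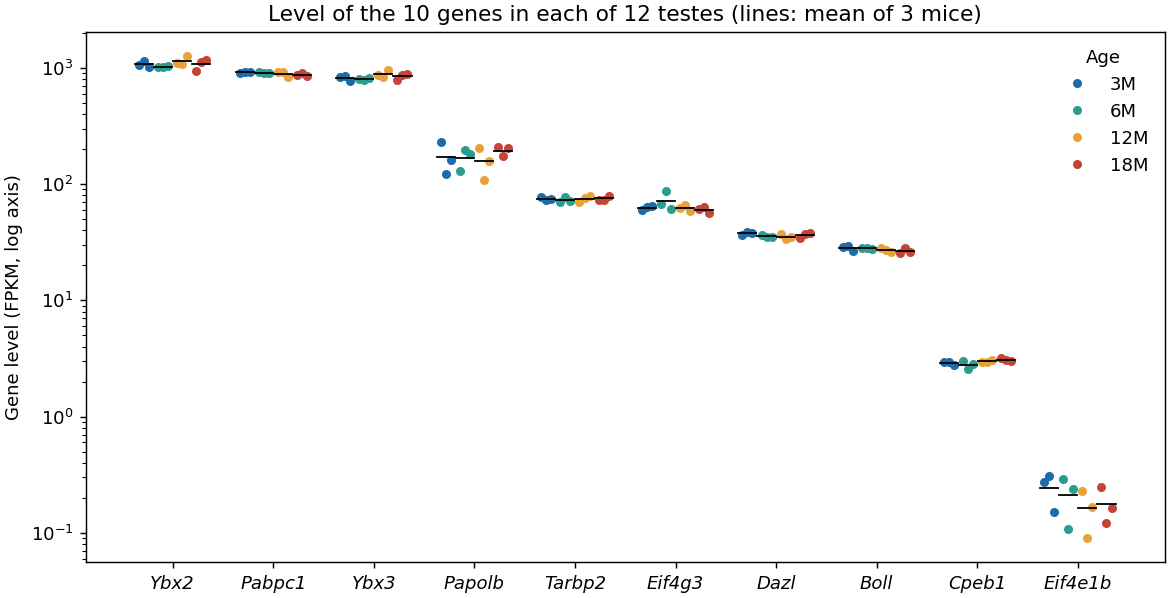
Level of each gene (FPKM, log axis) in the 12 testes, with 1 point per mouse, colours for the 4 ages and a line at the mean of 3 mice. Ybx2, Pabpc1 and Ybx3 lie at the top, between 775 and 1253 FPKM, and Eif4e1b at 0.307 or less, and within each gene the 4 ages lie at about the same height.

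The question put to each gene was whether its level differed between ages. None of the 10 genes passed an adjusted p of 0.05 in edgeR's quasi-likelihood test with Benjamini-Hochberg adjustment over all genes, in any of the comparisons made. Between 3M and 18M, 0 of 10 were called against 0.0662% of all genes (12 of 18130), with 0 of 10 at an unadjusted p of 0.05 or less (13.5% of all genes) and 0 of 10 called by DESeq2 (1.41% of all genes). The test of a slope on age over all 12 libraries called 0 of 10 against 0.41% of all genes, also 0 by DESeq2 (3.11%), and 0 of 10 reached an unadjusted p of 0.05 (17.5%). The test for any difference between the 4 ages also called 0 of 10 (0.0917% of all genes, and by DESeq2 0 of 10 against 2.13%), with 0 of 10 at an unadjusted p of 0.05 (10.3%). For the steps between neighbouring ages, 0 of 10 were called from 3M to 6M (0.0497% of all genes; DESeq2, 0 of 10 against 0.364%), from 6M to 12M (0.0606%; DESeq2, 0 of 10 against 0.689%) and from 12M to 18M (0.0275%; DESeq2, 0 of 10 against 0.209%). At an unadjusted p of 0.05, 2 of 10 passed from 6M to 12M (8.72% of all genes), and none from 3M to 6M (3.96%) or from 12M to 18M (3.52%).

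The intervals show how large a change these data leave room for. Between 3M and 18M, 5 genes had a positive and 5 a negative estimate, with a median log2 fold change of -0.01 beside -0.0019 over all genes. For 8 of the 10, the 95% interval lay within 0.3 of 0 on the log2 scale, the farthest bound being 0.28 for Cpeb1, which is a 1.22-fold change. The 2 wide intervals belonged to Papolb and to Eif4e1b.

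**Figure D2:**
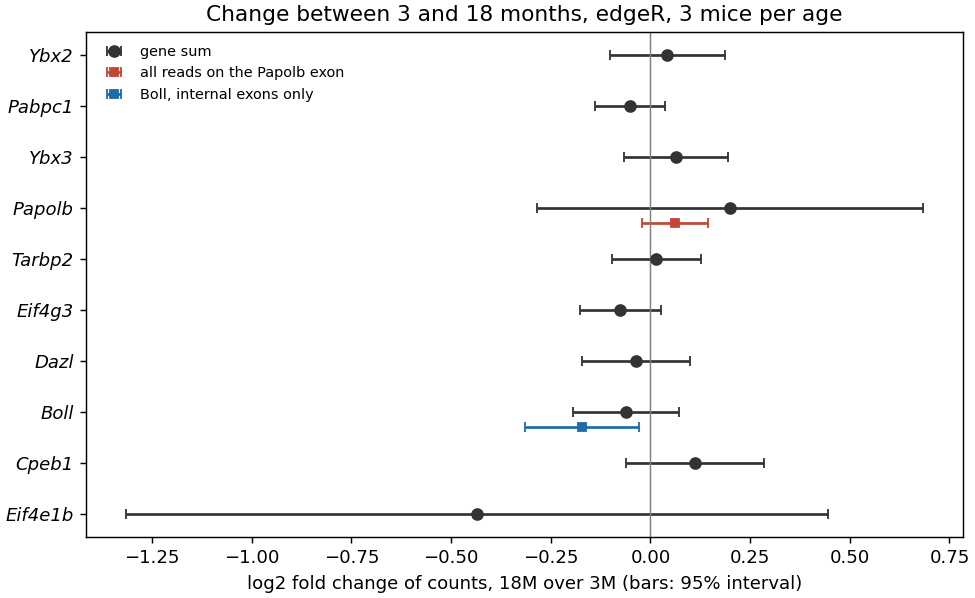
Log2 fold change of counts between 3M and 18M (18M over 3M; edgeR, 3 mice per age) with its 95% interval, for the summed transcripts of each gene (black), for all reads on the Papolb exon (red) and for Boll on its internal exons only (blue). All 10 black intervals cross 0, and Papolb's narrows from -0.28 to 0.68 to the range -0.02 to 0.15 when all reads on its exon are counted.

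The Y-box proteins coat stored mRNAs, and Ybx2 (MSY2; chr11:69935796-69941605, plus strand) is the form specific to germ cells. Its level was 1061, 1142 and 1022 FPKM in the 3M mice, 1023, 1005 and 1042 at 6M, 1106, 1075 and 1253 at 12M, and 941, 1116 and 1162 at 18M. The third 12M mouse was highest and the first 18M mouse lowest in FPKM, and the 3M and 18M mice overlapped. In CPM with TMM factors the second 6M mouse was lowest, at 1766, and the first 18M mouse was at 1793. The log2 fold change between 3M and 18M was 0.04 ± 0.06 (SE), with an adjusted p of 0.787 in edgeR. Ybx3 (MSY4; chr6:131364855-131388476, minus strand), a relative with a wider expression, was at 825, 846 and 775 FPKM at 3M, 802, 786 and 809 at 6M, 862, 831 and 954 at 12M, and 789, 859 and 885 at 18M. The same 12M mouse was highest, and the 3M and 18M mice overlapped. Its log2 fold change between 3M and 18M was 0.06 ± 0.06 (SE; adjusted p of 0.633).

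The Y-box genes were the 2 that had an unadjusted p of 0.05 or less from 6M to 12M. In TMM-normalized CPM, the scale of the test, Ybx2 was at 1805, 1766 and 1786 in the 6M mice and at 1958, 1910.3 and 2227 in the 12M mice, without overlap. The log2 difference was 0.19 ± 0.06 (SE), with an unadjusted p of 0.0181 and an adjusted p of 0.535 in edgeR. Ybx3 was at 1668, 1623 and 1628 CPM at 6M and 1794, 1737 and 1991 CPM at 12M, again without overlap, with a log2 difference of 0.17 ± 0.06 (SE; unadjusted p of 0.0213, adjusted p of 0.535). Neither passed the adjusted threshold, and the share of all genes without overlap between 6M and 12M was not counted. The 2 genes under an unadjusted p of 0.05 became 0, 0 and 1 without the first, the second and the third 6M mouse, with p of 0.0515, 0.0630 and 0.0480 for Ybx2 and of 0.0519, 0.0721 and 0.0588 for Ybx3. Without the third 12M mouse the differences were 0.11 (adjusted p of 0.601) and 0.10 (adjusted p of 0.624).

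Ybx2 and Ybx3 varied together from mouse to mouse. Over the 12 libraries their log2(CPM + 1) had a Pearson r of 0.975 and a Spearman rho of 0.902, and an r of 0.930 without the third 12M and the third 18M mouse. Of the 15428 other genes at a mean of 1 CPM or more, each was the gene most like the other. The ratio of Ybx2 to Ybx3 in CPM was 1.11 ± 0.0182 (SD, n = 12) and ran only from 1.08 to 1.15. These points share libraries and depth scaling. The longest coding transcripts of the pair in GENCODE had 0 windows of 50 bases in common.

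The summed level of 6 elongating spermatid markers (Prm1, Prm2, Tnp1, Tnp2, Odf1 and Akap4) moved with the Y-box genes. The sum ran from 16024 to 17825 CPM at 3M, from 15064 to 16806 at 6M, from 16931 to 22148 at 12M and from 16801 to 19907 at 18M. No 6M mouse reached the level of a 12M mouse, and how often this holds among all genes was not counted. The third 12M mouse was again highest. None of the 6 markers passed the slope test or the test between 3M and 18M, and none was at 0. Over 12 libraries the Pearson r of this sum was 0.833 with Ybx2 and 0.853 with Ybx3. It fell to 0.451 and 0.508 without the third 12M and the third 18M mouse. The same sum had an r of -0.64 with Eif4g3 and -0.55 with Pabpc1. Ybx2 and Ybx3 also had r of -0.61 and -0.69 with the Leydig cell sum. With the macrophage and lymphocyte sum their r were -0.67 and -0.71. The part of the cell types in the difference between 6M and 12M was not tested.

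**Figure D3:**
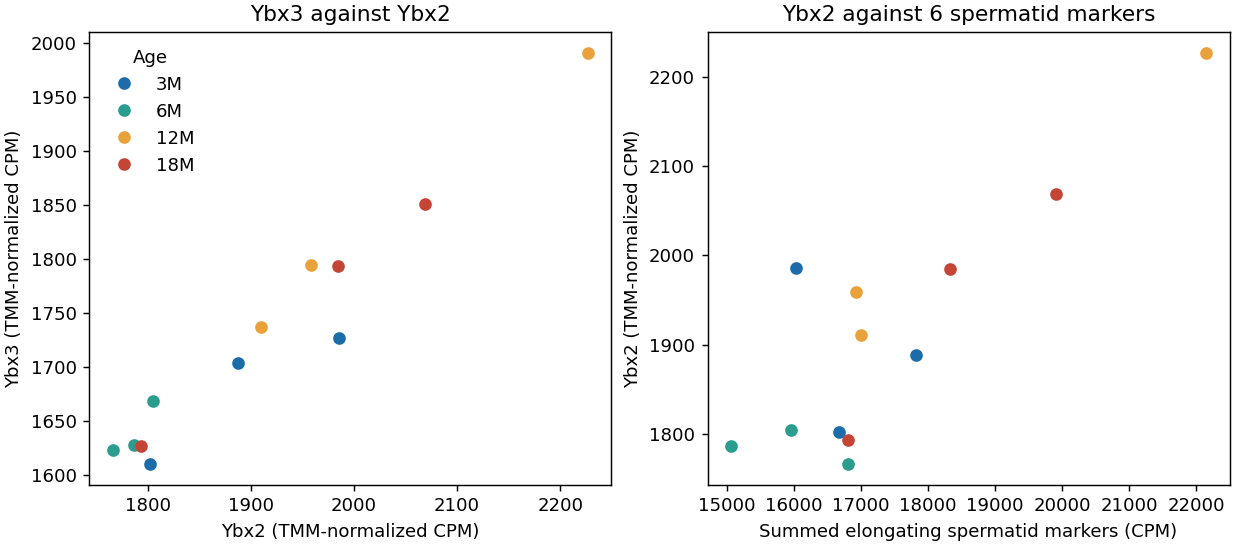
Left, Ybx3 against Ybx2; right, Ybx2 against the summed level of 6 elongating spermatid markers (all in TMM-normalized CPM), with 1 point per mouse coloured by age. The third 12M mouse lies at the top of both plots, at 2227 CPM for Ybx2, and on the left the 12 points follow a line.

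Because this pair varied together, the 250 bases before their RefSeq start sites (GRCm38.p6) are shown, with the letters CCAAT or their reverse complement ATTGG in capitals. CCAAT, searched on both strands, is the core of the Y-box element for which these proteins are named. The window of the upstream of 2 Ybx2 starts (chr11:69935649-69935898, plus strand) holds it at 140 and 87 bases before the start site, both on the minus strand, and the Ybx3 window (chr6:131388451-131388700, minus strand) holds none, nor does that of the other Ybx2 start (chr11:69936078-69936327, plus strand), which is not printed. Of all 32851 windows of 300 bases, from 250 before to 50 after a start, 37.4% hold the letters, and of 11 windows of 8 of the 10 genes, 5 do. The longer forms CTGATTGG and the cAMP response element TGACGTCA, are in 4.10% and 1.79% of all windows and in 1 and 0 of the 11, and TATAAA is in 13.6% and in 1 of the 11.
Ybx2: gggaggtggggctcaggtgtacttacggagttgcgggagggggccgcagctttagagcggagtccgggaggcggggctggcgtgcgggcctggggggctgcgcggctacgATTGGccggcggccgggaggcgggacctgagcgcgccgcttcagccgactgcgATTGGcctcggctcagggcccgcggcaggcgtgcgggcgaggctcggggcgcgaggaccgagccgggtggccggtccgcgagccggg
Ybx3: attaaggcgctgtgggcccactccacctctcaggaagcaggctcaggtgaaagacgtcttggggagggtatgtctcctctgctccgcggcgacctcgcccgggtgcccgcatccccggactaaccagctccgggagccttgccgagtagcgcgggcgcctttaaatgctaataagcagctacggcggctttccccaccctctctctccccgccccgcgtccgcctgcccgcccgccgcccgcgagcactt

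At the transcript level Ybx2 showed a split that the gene sum hides. The RefSeq form NM_016875 held 484 of 1061 FPKM in the first 3M mouse and 308 of 941 FPKM in the first 18M mouse, while it held 993 to 1237 FPKM in the other 10 mice. In the first 3M mouse, 539 FPKM were given to MSTRG.3069.3, a form whose first exon lies upstream (chr11:69853763-69853814) and which was at 0.008 FPKM or less in the other 11. In the first 18M mouse, 572 FPKM were given to MSTRG.3069.5, with another upstream first exon (chr11:69927479-69927722), and at most 0.144 FPKM in the others. Each of these forms was thus high in 1 mouse of 12. On the slope MSTRG.3069.5 had an adjusted p of 0.418 in edgeR, with its value resting on that 1 mouse, and MSTRG.3069.3 was too low in the other mice to be tested. Upstream of Ybx2 lies Eif5a (chr11:69916714-69921958) on the opposite strand, and the libraries kept no strand. Neither of the upstream first exons given above overlaps Eif5a. Where the reads of these forms came from was not tested.

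**Figure D4:**
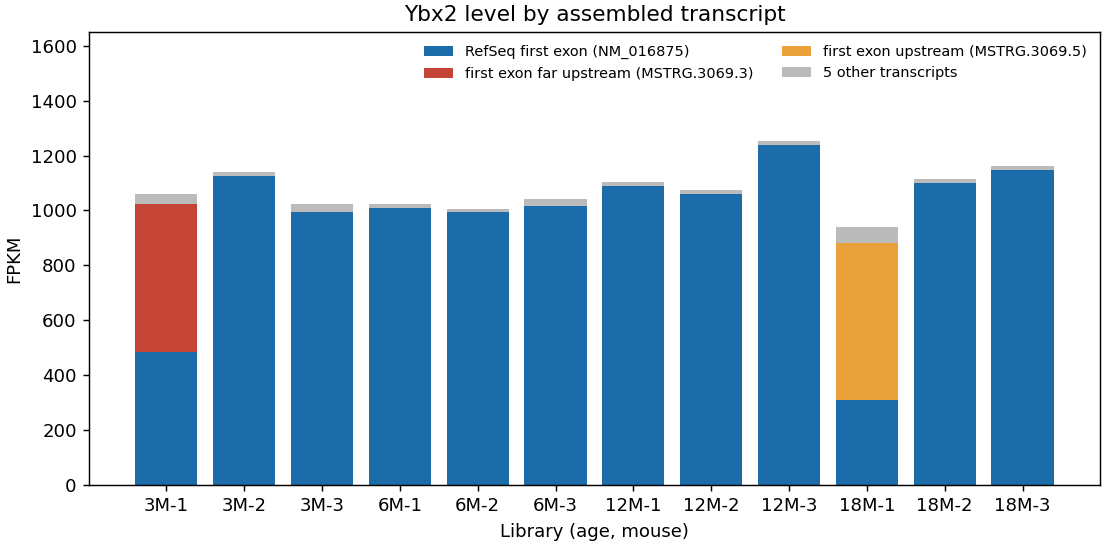
Ybx2 level in each library (FPKM), stacked by assembled transcript: the RefSeq form, 2 forms with upstream first exons and 5 others. The form of the first 3M mouse (red, 539 FPKM) and that of the first 18M mouse (orange, 572 FPKM) appear in no other bar, and the summed heights stay between 941 and 1253 FPKM.

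Ybx3 had 2 RefSeq forms that differ by the 207-nt exon printed above. NM_139117, with the exon, took 85.6% to 89.3% of the FPKM, and NM_011733 the rest. Read coverage of the exon itself gave a lower figure. It was 64.4%, 65.5% and 66% of the mean coverage of the neighbouring exons in the 3M mice, and 66.8%, 65.5% and 69% in the 18M mice. The 12 libraries ran from 64.4% to 69%, with a mean of 66% ± 1.27 (SD, n = 12), and the 3M and 18M mice overlapped.

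Pabpc1 (chr15:36595661-36609668, minus strand), the main cytoplasmic poly(A)-binding protein, was among the steadiest genes. It was at 898, 916 and 922 FPKM at 3M, 925, 895 and 895 at 6M, 913, 912 and 830.3 at 12M, and 859, 899 and 856 at 18M. The CPM had a coefficient of variation of 3.28% over 12 libraries, beside a median of 9.33% over the 15429 genes at 1 CPM or more, and 97.7% of those genes varied more. Between 3M and 18M its log2 fold change was -0.05 ± 0.04 (SE; adjusted p of 0.566 in edgeR). Its RefSeq transcript NM_008774, which held 91.3% of the FPKM, was at 830.2, 836 and 842 FPKM at 3M and 763, 814 and 776 at 18M. These did not overlap, and the share of all transcripts without overlap was not counted. That transcript had a log2 fold change of -0.10 ± 0.03 (SE), and it was called by DESeq2 (adjusted p of 0.0334) but not by edgeR (adjusted p of 0.859). The form MSTRG.6974.1 (8.52% of the FPKM) went the other way. It was at 67.8, 76.8 and 79.6 FPKM at 3M and 95.5, 83.2 and 79.1 at 18M (log2 fold change 0.20 ± 0.10 (SE), adjusted p of 0.922 in edgeR). How reads were divided between the 2 forms was not tested. Pabpc1 shares sequence with other genes: 20.7% of its windows of 50 bases also occur in them, mostly in Gm16580, and 5.23% at the full read length of 101 bases, so a part of its reads may have been split.

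Papolb (TPAP; chr5:142525838-142530076, minus strand), the cytoplasmic poly(A) polymerase of spermatids, varied most among the 9 genes at 1 CPM or more. It was at 228, 122 and 161 FPKM at 3M, 129.7, 195 and 180.1 at 6M, 205, 108 and 159 at 12M, and 206, 173 and 203 at 18M. High and low values occurred at 3M, 6M and 12M alike, and the coefficient of variation in CPM was 21.9%, a value passed by 9.30% of genes. The log2 fold change between 3M and 18M was 0.20 ± 0.21 (SE; adjusted p of 0.696 in edgeR). This estimate moved with single libraries, to 0.47 without the first 3M mouse (unadjusted p of 0.0121, adjusted p of 0.257) and to 0.0040 without the second 3M mouse (adjusted p of 0.995). The RefSeq form NM_019943 held 99.9% of the FPKM.

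Papolb has no intron and lies inside the gene Radil (chr5:142484839-142551098, minus strand), which links small GTPases to cell adhesion. The merged assembly holds a Radil transcript, MSTRG.16413.1, that uses the 2262 bases of the Papolb exon (chr5:142527815-142530076). The share of reads on that exon assigned to Radil transcripts was 0%, 45.1% and 27.6% in the 3M mice, 43.9%, 15.3% and 19.5% at 6M, 9.40%, 51.8% and 25.3% at 12M, and 11.1%, 24.8% and 13% at 18M. All reads on the exon together were steady. They came to 569, 553 and 556 CPM (without TMM factors) at 3M, 576, 571 and 560.5 at 6M, 563, 559 and 531 at 12M, and 578, 577 and 583 at 18M. The part assigned to Papolb ran from 269 to 569. With all exon reads counted as Papolb, a choice made after its values were seen, the log2 fold change was 0.06 ± 0.04 (SE), with a 95% interval of -0.02 to 0.15 and an adjusted p of 0.469.

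**Figure D5:**
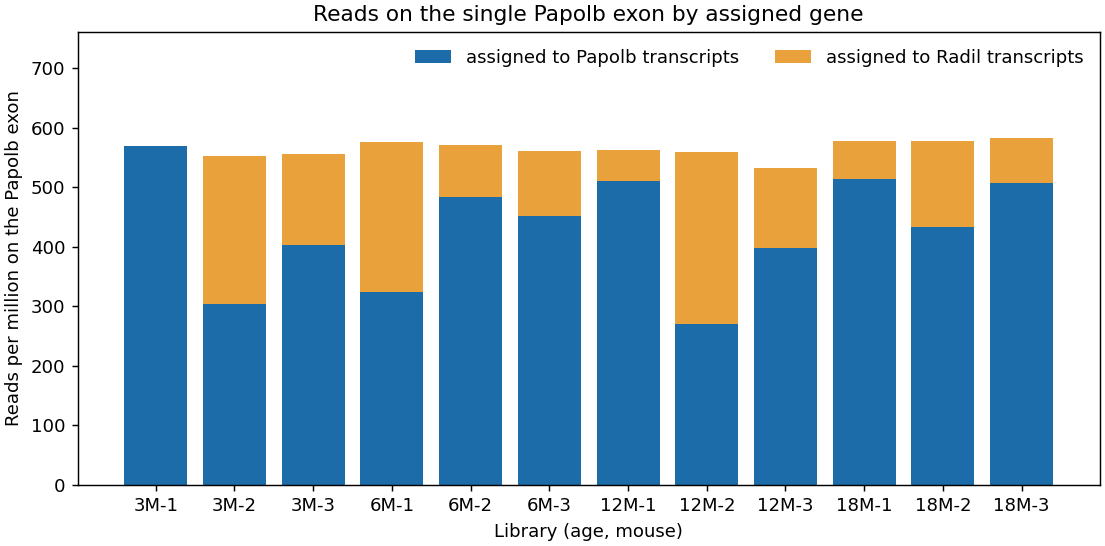
Reads on the Papolb exon (CPM without TMM factors) in each library, divided by the gene whose transcripts they were assigned to. The full bars stand between 531 and 583 in all 12 libraries, while the blue part, assigned to Papolb, ran from 269 to 569.

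The levels of the cap-complex genes lay far apart. Eif4g3 (chr4:137993022-138208508, plus strand), a scaffold of the cap complex needed for male meiosis, was at 59.6, 63.6 and 64.5 FPKM at 3M, 67.9, 86.4 and 61.3 at 6M, 62.8, 66.3 and 58.9 at 12M, and 61, 62.9 and 56.5 at 18M. The second 6M mouse stood above the other 11, and the 3M and 18M mice overlapped. In CPM the same mouse was at 701, beside 701 and 630.0 in the other 6M mice, so its counts did not stand apart. The short form MSTRG.14730.10 was at 18.1 FPKM there and at 3 to 5.2 FPKM in the other 11 mice. Between 3M and 18M the gene had a log2 fold change of -0.08 ± 0.04 (SE; adjusted p of 0.474 in edgeR).

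Little of Eif4g3 was in its RefSeq forms, which held 0.715% of the FPKM. The most abundant forms were MSTRG.14730.4 (25% of the FPKM), which starts with an exon of 6965 nt (chr4:137986663-137993627), and MSTRG.14730.13 (20.7%), with an internal exon of 2691 nt (chr4:138177917-138180607). MSTRG.14730.1 held 18.2%, ranging from 2.28% to 27.6% between libraries, and MSTRG.14730.12 held 10.2%. Coverage of that internal exon was only 3.23% to 4.31% of the coverage of the shared exons on its 3′ side. First exons of 6965 nt or more held only 13.6 to 33.6 CPM (without TMM factors), beside 607 to 701 CPM for the gene. The FPKM shares of these forms therefore do not show how many mRNAs carry the long exons. The form MSTRG.14730.3, with 7.6% of the FPKM, was at 6.6, 5.1 and 5.9 FPKM at 3M and 4, 3.7 and 3.7 at 18M. These did not overlap, and the share of all transcripts without overlap was not counted. Its log2 fold change was -0.64 ± 0.11 (SE), called by DESeq2 (-0.65; adjusted p of 9.5e-07) but not by edgeR (adjusted p of 0.347). This form (12978 nt) is close to MSTRG.14730.4 (12918 nt), with 33 exons and the same end in both. MSTRG.14730.4 had a log2 fold change of 0.03 ± 0.09 (SE; adjusted p of 0.997 in edgeR). How reads were divided between these 2 forms was not tested. Of 40 transcripts of the 10 genes tested between 3M and 18M, edgeR called 0, with 2 at an unadjusted p of 0.05 or less, and DESeq2 called these 2, beside 0.108%, 5.4% and 3.16% of all transcripts. On the slope it called 0 of 43 (0.0103%; DESeq2, 0 against 1.28%), with 5 at an unadjusted p of 0.05 (7.15%).

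Eif4e1b (chr13:54783998-54788459, plus strand), a cap-binding protein best known from oocytes, was near 0. It had 30, 35 and 19 reads at 3M, 31, 12 and 27 at 6M, 28, 10 and 22 at 12M, and 29, 13 and 25 at 18M. The mice of all ages overlapped. Its log2 fold change was -0.43 ± 0.38 (SE) with a 95% interval of -1.31 to 0.44, which leaves room for a 2-fold fall but not for a 2-fold rise. NM_001033269 held 70.4% of its FPKM and NM_001286178 held 15.6%, with shares of 9.32% to 100% and 0% to 88.9% by library.

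The DAZ family binds U-rich elements of germ cell mRNAs and recruits poly(A)-binding proteins. Dazl (chr17:50279395-50293636, minus strand) was at 36.6, 38.5 and 38 FPKM at 3M, 36.5, 34.9 and 35.3 at 6M, 36.9, 33.5 and 34.7 at 12M, and 34.1, 37.5 and 37.6 at 18M. The 3M and 18M mice overlapped, with a log2 fold change of -0.04 ± 0.06 (SE; adjusted p of 0.817 in edgeR). In FPKM each 3M mouse was above each 6M mouse, the closest being 36.6 and 36.5. In TMM-normalized CPM the 3M and 6M mice overlapped, with 122.0 in the first 3M and 122.2 in the first 6M mouse. The difference between 3M and 6M was -0.09 ± 0.05 (SE) on the log2 scale of counts, with an unadjusted p of 0.113 and an adjusted p of 0.991 in edgeR. The 51-nt exon printed above was covered at 92.9% to 109.6% of its neighbours, with 94.7%, 95.3% and 98.2% at 3M and 96.4%, 109.6% and 92.9% at 18M. NM_010021, the form that holds it, took 91.2% to 95.7% of the FPKM.

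Boll (chr1:55248658-55363469, minus strand), the family member of late meiosis, was at 28.9, 29.3 and 26.5 FPKM at 3M, 27.9, 28.4 and 27.6 at 6M, 28.3, 27.1 and 26.2 at 12M, and 25.6, 28.2 and 26.2 at 18M. The ages overlapped, with a log2 fold change of -0.06 ± 0.06 (SE; adjusted p of 0.666 in edgeR). RefSeq forms held 2.89% of this level. The second form, MSTRG.295.9, held 31.4% of the FPKM. The most abundant, MSTRG.295.7, held 55.9% and ends in an exon of 4371 nt (chr1:55244594-55248964) that overlaps Mars2, a mitochondrial methionyl-tRNA synthetase gene on the other strand, and 46.2% to 53% of Boll reads fell on these last exons. Coverage of the last exons was 24.6% to 37.4% of that of the 8 internal exons shared by all Boll transcripts.

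On the 8 exons present in all 7 Boll transcripts, of 744 nt in all and chosen after its values were seen, the reads in CPM (without TMM factors) were 54.4, 61.2 and 54.2 at 3M, 57.6, 54.7 and 53.8 at 6M, 54.1, 58.3 and 42.7 at 12M, and 50.7, 51.1 and 48 at 18M. All 3 mice at 18M were below all 3 at 3M. In gene sums in CPM, 21.9% of all genes at 1 CPM or more had no overlap between these ages, in either direction, while Boll overlapped. On the 8 exons the log2 fold change was -0.17 ± 0.06 (SE). It had an unadjusted p of 0.0251 and an adjusted p of 0.319 in edgeR, which does not pass the threshold. At 12M the third mouse was the lowest of the 12.

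Cpeb1 (chr7:81347026-81455465, minus strand), which binds the cytoplasmic polyadenylation element, was at 2.95, 2.96 and 2.76 FPKM at 3M, 2.98, 2.55 and 2.81 at 6M, 2.93, 2.95 and 3.08 at 12M, and 3.19, 3.04 and 3.02 at 18M. All 18M mice were above all 3M mice, which was so, in either direction and in CPM, for 1 of the 10 genes and for 21.9% of all genes at 1 CPM or more. The log2 fold change was 0.11 ± 0.07 (SE; adjusted p of 0.53 in edgeR), and the slope of 0.0096 ± 0.0046 (SE) per month had an unadjusted p of 0.0532 and an adjusted p of 0.293. This was the lowest slope p among the 10 genes. NM_001252526 held 80.4% of the Cpeb1 FPKM (54.5% to 98.8% by library) and NM_001252525 held 10.4%.

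Tarbp2 (chr15:102518192-102523676, plus strand), a partner of Dicer that is needed for protamine mRNA translation in spermatids, was at 76.9, 73.2 and 74.5 FPKM at 3M, 70.5, 76.5 and 70.8 at 6M, 69.4, 76.2 and 79.3 at 12M, and 73.3, 73.3 and 78.5 at 18M. The ages overlapped, with a log2 fold change of 0.01 ± 0.05 (SE; adjusted p of 0.912 in edgeR). Its r with the elongating spermatid sum, its largest with a cell type sum, was 0.808 over 12 libraries. It was 0.665 without the third 12M and the third 18M mouse. NM_009319 held 24.4% of the FPKM, and MSTRG.7680.7, which starts farther downstream, 49.7%, with 17.2% in MSTRG.7680.8. Tarbp2 is the gene of this set with most sequence in common with another: 36.5% of its windows of 101 bases also occur in Gm18584.

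The order of the ages was read from the mean FPKM of 3 mice. Pabpc1, with means of 912, 905, 885 and 871 FPKM, and Boll, with 28.3, 28, 27.2 and 26.7 FPKM, had a lower mean at every step from 3M to 18M, 2 of the 9 genes at a mean of 1 FPKM or more in at least 1 age, while none had a higher mean at every step. Among all 13688 such genes 14.9% changed in a fixed direction, 8.53% downward. In both genes the mice of neighbouring ages overlapped at each of these steps.

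Of the 36 pairs among the 9 genes at 1 CPM or more, 8 had an r over 0.5 and 2 under -0.5 in log2(CPM + 1) over 12 libraries, with a median of 0.047. Such pairs were not counted over all genes, so these counts cannot be weighed. Pabpc1 and Eif4g3, whose proteins bind each other in the cap complex, came second at 0.823 (Spearman rho 0.734, and 0.808 without the third 12M and the first 18M mouse). Eif4g3 ran against Ybx2 (-0.59) and Ybx3 (-0.60). The genes most like the others over the 12 libraries, of 15428 compared, were Ppp4r4 for Pabpc1 (r of 0.917), Ccnh for Papolb (0.868), Uhrf1bp1l for Eif4g3 (0.981), Snap29 for Dazl (0.885), Slmap for Boll (0.918), Xpa for Cpeb1 (0.890) and Bpifa3 for Tarbp2 (0.902).

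Other genes of the same processes were counted from 6 lists with 94 genes in all. Between 3M and 18M, 0 of the 91 tested were called and 11 had an unadjusted p of 0.05 or less. On the slope 1 of 92 was called, Bicc1, and 17 had an unadjusted p of 0.05 or less, which is 18.5% beside 17.5% of all genes. Bicc1, an RNA-binding translational repressor, fell with age, from 7.97 ± 0.5 (SD, n = 3) CPM at 3M and 7.35 ± 0.08 at 6M to 5.05 ± 0.73 at 12M and 5.14 ± 0.11 at 18M (slope -0.0469 ± 0.008 (SE) per month, adjusted p of 0.0283 in edgeR). The call was lost without any 1 of 8 libraries (all 3 at 3M, the first and the second at 6M, the second at 12M, and the second and the third at 18M), with adjusted p of 0.0505 to 0.0806, and with all class codes summed (0.379).

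Of 9 genes for mRNA masking and decapping, 0 passed either test, with a median log2 fold change of -0.06 between 3M and 18M. The lowest slope p were those of Ddx6 (adjusted p of 0.187 in edgeR), a helicase of storage particles, and Patl1 (0.315). None of 21 poly(A) tail genes passed the slope test (median log2 fold change 0.01 between 3M and 18M). Here Pabpc4 (slope -0.018 per month, adjusted p of 0.227) and Pabpc6 (-0.0085, adjusted p of 0.25) were lowest in p, and Pabpc6, a relative of Pabpc1, was at 490.3 ± 18.8 (SD, n = 3) CPM at 3M and 438 ± 18 at 18M.

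None of the 13 cap and scaffold genes passed (median 0.05), with Eif4e (slope 0.0091 per month, adjusted p of 0.27) and Eif4g1 (0.0051, adjusted p of 0.327) lowest in p. Of 14 genes for double-stranded RNA binding and Dicer partners, 0 passed (median -0.09), with Dicer1 (slope -0.016, adjusted p of 0.19) and Adad2 (0.013, adjusted p of 0.212) lowest in p. Of 21 other germ cell RNA-binding proteins tested, only Bicc1 was called (median 0.01). The list of 14 mRNAs that are stored or bound by these proteins, such as the protamines, had 0 called and a median of 0.10. It includes all the elongating spermatid markers and the spermatocyte markers Sycp1 and Sycp3, so its values and those of the markers are not separate results. Odf1, a protein of the sperm tail (slope 0.0127, adjusted p of 0.188), and Pgk2, the germ cell form of phosphoglycerate kinase (0.0067, adjusted p of 0.262), were lowest in p there.

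No germ cell marker passed these tests. Of 7 spermatogonial, 7 spermatocyte, 6 round spermatid and 6 elongating spermatid markers, 0 were called on the slope, and 1, 1, 5 and 1 had an unadjusted p of 0.05 or less, beside 17.5% of all genes. The summed round spermatid markers lay at 1117, 928 and 1108 CPM in the 3M mice and at 1201 to 1246 at 18M. These did not overlap, as was so for 21.9% of single genes at 1 CPM or more. Of 7 Leydig cell markers 3 fell on the slope (Cyp17a1, Cyp11a1 and Lhcgr, of steroid synthesis and its hormone receptor), the call of Lhcgr being lost without any 1 of 7 libraries (the second at 3M, the first and the second at 6M and at 12M, and the second and the third at 18M; adjusted p up to 0.135), with the replicate block (0.0572) and with only class = (0.0999), and that of Cyp11a1 with only class = (0.0859). The 7 summed to 918 to 1094 CPM at 3M and 586 to 802 at 18M. None of the Sertoli cell (7), peritubular (3), endothelial (3), macrophage and lymphocyte (5) or epididymal (2) markers tested passed on the slope, and of the epididymal list Lcn5 and Adam7 were at 0 in all libraries. The part of these shifts in the values of the 10 genes was not tested.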

How the data were processed

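Total RNA of 12 testes was sequenced in pairs of 101-base reads. The authors mapped reads to mm10 using HISAT2, and used StringTie 1.3.3b for assembly and quantification. They deposited estimated counts (coverage times length over 101, rounded up by the authors) and FPKM per transcript and library, and assemblies whose exon coverage signal (the other deposited value used here) served for exon values. Counts were taken as they stand and summed per gene. No pair of libraries of an age held the same values.

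Differences in counts were assessed by edgeR 4.0.16 under R 4.3.3 (TMM, filterByExpr, quasi-likelihood F-test, Benjamini-Hochberg adjustment over all genes, called at 0.05), with the libraries of both ages in a pair and all 12 for the slope and for any difference. DESeq2 1.42.0 was the alternative test. The scripts were tested on simulated data. Python 3.11.15 served for other steps. The steps between ages used mean FPKM of 1 or more. No FPKM was tested. The 10 genes and the lists were chosen with earlier results of these data known, and the text names all 10, their transcripts of 10% or more of a gene's FPKM or called, up to 5 called genes of a list or else the 2 lowest in slope p, and the most correlated gene. Alternatives were other normalizations, filters, class codes, tests, the replicate number as a block, and each library left out. In GENCODE vM21 every symbol was found, and in the RefSeq promoter table (GRCm38.p6) 8 of 10 were. Mouse numbers carry no stated pairing.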

Additional observations from a re-analysis of the deposited data

How the results depend on the processing

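The count of 0 of 10 genes called held in all comparisons under other normalizations, no filter, all class codes, only class =, all 12 libraries in a fit, DESeq2 and with each library left out (0 to 0). A log2 fold minimum of 1 cannot raise a count of 0, so it checks nothing here. Only class = keeps 0.715% of the Eif4g3 and 2.89% of the Boll FPKM, so it hardly tests these genes. With the replicate block the count was also 0 in all 6 comparisons, and 0 for transcripts in both, so the block changed no call of these genes. Same-numbered mice of 2 ages correlated at -0.0556 to 0.169 in their deviations, with 1 of 12 pairs over 0.1. Mice of different numbers were not compared, so this cannot decide whether the numbers pair mice. With the block the genes called in all went from 12 to 7 between 3M and 18M, 11 to 0 from 6M to 12M, 76 to 42 on the slope and 17 to 9 for any difference, and the transcripts from 59 to 0 and from 6 to 3.

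At an unadjusted p of 0.05, 2 genes passed from 6M to 12M, and 2 and 5 transcripts passed between 3M and 18M and on the slope. DESeq2 called 2 transcripts between 3M and 18M. Leaving out a library kept 0 transcripts called. The 2 genes with a lower mean at every step (Pabpc1 and Boll) were 1 by medians, 1 after scaling FPKM to a common sum (1000000), 0 with only class = and 2 in CPM. Counted in either direction with a library left out, 0 to 3 genes changed at every step: 0 without the first 12M mouse, and without the second 6M mouse Pabpc1 and Boll lower and Cpeb1 higher.

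Estimates of the 10 genes changed sign in 10 of the alternatives, all of sizes near 0. Between 3M and 18M these were Ybx2 without the third 18M mouse (-0.0022), Eif4g3 with only class = (0.061), Dazl without the first 18M mouse (0.018), and Tarbp2 with only class = (-0.093), without the second 3M mouse (-0.0018) and without the third 18M mouse (-0.015). On the slope they were Dazl without the second 3M (9.9e-05), the third 3M (0.00018) and the first 18M mouse (0.00096), and Tarbp2 with only class = (-0.0013). With a library left out, the estimates between 3M and 18M ran from -0.0022 to 0.10 for Ybx2, -0.063 to 0.018 for Dazl and -0.015 to 0.036 for Tarbp2, and the slope of Dazl from -0.0032 to 0.00096.

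The genes called in all moved by over 1.5 times from 12, 9, 11, 5, 76 and 17 (in order 3M against 18M, the 3 steps by rising age, the slope, any difference) to 255, 66, 125, 38, 576 and 395 by DESeq2. With only class = they were 19, 0, 11 and 7 in the first, the second, the fifth and the last. With all 12 libraries the pairs gave 22, 3, 3 and 0. All class codes gave 7 from 6M to 12M, and no filter 45 on the slope. Leaving out a library gave 14 to 25, 11 to 30, 5 to 21, 5 to 19, 18 to 193 and 8 to 46. The transcripts moved from 59 and 6 to 1719 and 749 by DESeq2, 22 and 3 with no filter, 18 with all 12 libraries, and 8 to 25 and 3 to 8 with a library left out. Among other genes called on the slope, Bicc1 had an adjusted p of 0.0575 with the replicate block and 0.0958 with only class =. Eif4e1b rests on 10 to 35 reads per library.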
